A study of Mus musculus with 4 samples.

Results

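The follicular helper and regulatory T cell genes Icos, Pdcd1, Cd40lg, Il21, Il4, Maf, Tox2, Sh2d1a, Izumo1r and Foxp3 were followed in the T cells that remained among sorted splenic B cells. These 10 genes were picked by name, out of 31053 in the matrices, and were read in CD4 T cells, in CD8 T cells and in germinal center (GC) B cells of each genotype. CD4 T cells were barcodes outside the deposited GC B cell annotation with at least 2 unique molecular identifiers (UMIs, each counting 1 captured transcript) of Cd3e, Cd3d and Cd3g together, at least 1 UMI of Cd4 and 0 of Cd8a and Cd8b1. CD8 T cells had the same CD3 minimum, at least 1 UMI of Cd8a or Cd8b1 and 0 of Cd4. This gave 1316 CD4 T cells, 6520 CD8 T cells and 9804 annotated GC B cells among 39009 barcodes.

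The cells were B220+IgD- splenocytes, taken on day 10 of a GC response to injected sheep red blood cells and profiled on a droplet platform that reads the 3' ends of transcripts. All 4 mice, on a C57BL/6J background, carried the Cγ1-cre allele. Cre is made from the Ighg1 locus in this allele, so it acts in activated B cells and the T cells described here are not its target. The mice had no floxed allele (WT), a single floxed Crebbp allele (C), a single floxed Kmt2d allele (K) or both of these (CK), and each genotype was 1 mouse and 1 library.

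Follicular helper T cells sit in the GC and select B cells. They signal through CD40 ligand and ICOS on their surface and through the cytokines IL-21 and IL-4, while PD-1 restrains them and the adaptor SAP, encoded by Sh2d1a, keeps them attached to B cells. Regulatory T cells, defined by the transcription factor FOXP3, include a follicular subset that dampens the same reaction.

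In GRCm38 with the GENCODE vM21 annotation all 10 are protein-coding genes. Icos (chr1:60977927-61000320) and Pdcd1 (chr1:94038305-94052553) share chromosome 1, and Cd40lg (chrX:57212143-57224042), Sh2d1a (chrX:42502453-42529330) and Foxp3 (chrX:7573644-7595245) share chromosome X. Il21 lies at chr3:37222759-37232636, Il4 at chr11:53602982-53618669, Maf at chr8:115682942-115707794, Tox2 at chr2:163203125-163324170 and Izumo1r at chr9:14885814-14903949.

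Il21 and Il4 had the fewest UMIs in Foxp3-positive cells, so the sequence before their starts is shown as RefSeq gives it for GRCm38.p6. Capitals mark GGAAA on either strand, the core that NFAT factors bind. Both windows hold the 250 bases before the start that lies nearest the GENCODE gene start, on the minus strand, at chr3:37232637-37232886 for Il21 and chr11:53618666-53618915 for Il4.
Il21: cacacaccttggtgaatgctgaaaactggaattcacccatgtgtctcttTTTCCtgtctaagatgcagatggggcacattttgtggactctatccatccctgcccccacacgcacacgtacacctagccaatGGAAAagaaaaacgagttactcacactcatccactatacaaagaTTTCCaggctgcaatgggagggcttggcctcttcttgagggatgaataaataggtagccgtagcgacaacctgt
Il4: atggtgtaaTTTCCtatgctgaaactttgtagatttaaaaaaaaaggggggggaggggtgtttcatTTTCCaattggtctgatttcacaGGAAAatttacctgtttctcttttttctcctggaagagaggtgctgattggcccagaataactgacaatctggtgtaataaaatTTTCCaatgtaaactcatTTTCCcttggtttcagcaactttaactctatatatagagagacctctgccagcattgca

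The Il21 window held 3 such cores and the Il4 window held 5. Of 32851 windows of this length, 55.6% held at least 1 core, 21.4% held 2 or more and 1.59% held 4 or more. A second Il4 window in the table, whose start lies 1331 bases from the GENCODE start, held 0. The AP-1 letters TGANTCA, searched on both strands, were found in neither window and in 6.75% of all windows. Windows were found for 6 of the 10 genes, which left Icos, Cd40lg, Maf and Sh2d1a without one here.

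Library totals ran from 33270825 to 39803865 UMIs. CD4 T cells numbered 330, 230, 284 and 472 for WT, C, K and CK, with median UMIs per cell of 2990, 2376, 2590 and 1962. All 9 CD4 T cell markers had UMIs in every library, but Cd3e, Cd3d, Cd3g and Cd4 among them chose the cells. All 9 also had UMIs in every library in GC B cells, so their presence does not set CD4 T cells apart. B cell markers were present too: their summed level in CD4 T cells was 1307 to 2024 CPM (each gene's UMIs scaled to a common total of the summed cells), beside 1370 to 1736 in CD8 T cells and 8325 to 9315 in GC B cells, and the part of free B cell RNA or of doublets in this was not tested. Libraries shared 143 barcode sequences over all pairs, and 1 of these was a CD4 T cell in both libraries. The study describes female mice for this experiment, whereas Ddx3y, a Y-linked gene, stood at 42.4 to 68.7 CPM in every library and the female-specific Xist had 0 to 13 UMIs. The K library stood apart. In CD4 T cells its ratios over WT fell with transcript length, with a Spearman correlation of -0.40 across 7939 genes, against -0.06 for C and -0.12 for CK, and their median was -0.15 on the log2 scale against -0.00058 and -0.05.

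All 10 genes were higher in CD4 T cells than in CD8 T cells, in each of the 4 libraries. The median log2 fold of the 10 was 4.61, beside 0.01 over all 9560 genes tested, of which 18.7% were higher and 16.3% lower. Sums per library and class were tested with the edgeR quasi-likelihood test, with the library as a block and p-values adjusted over all genes. The tests compare cell classes over 4 mice of different genotype. CD4 was used to pick the cells, none of the 10 genes was. The 10 genes and the gates were, however, chosen with earlier results of these data known.

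**Figure D1:**
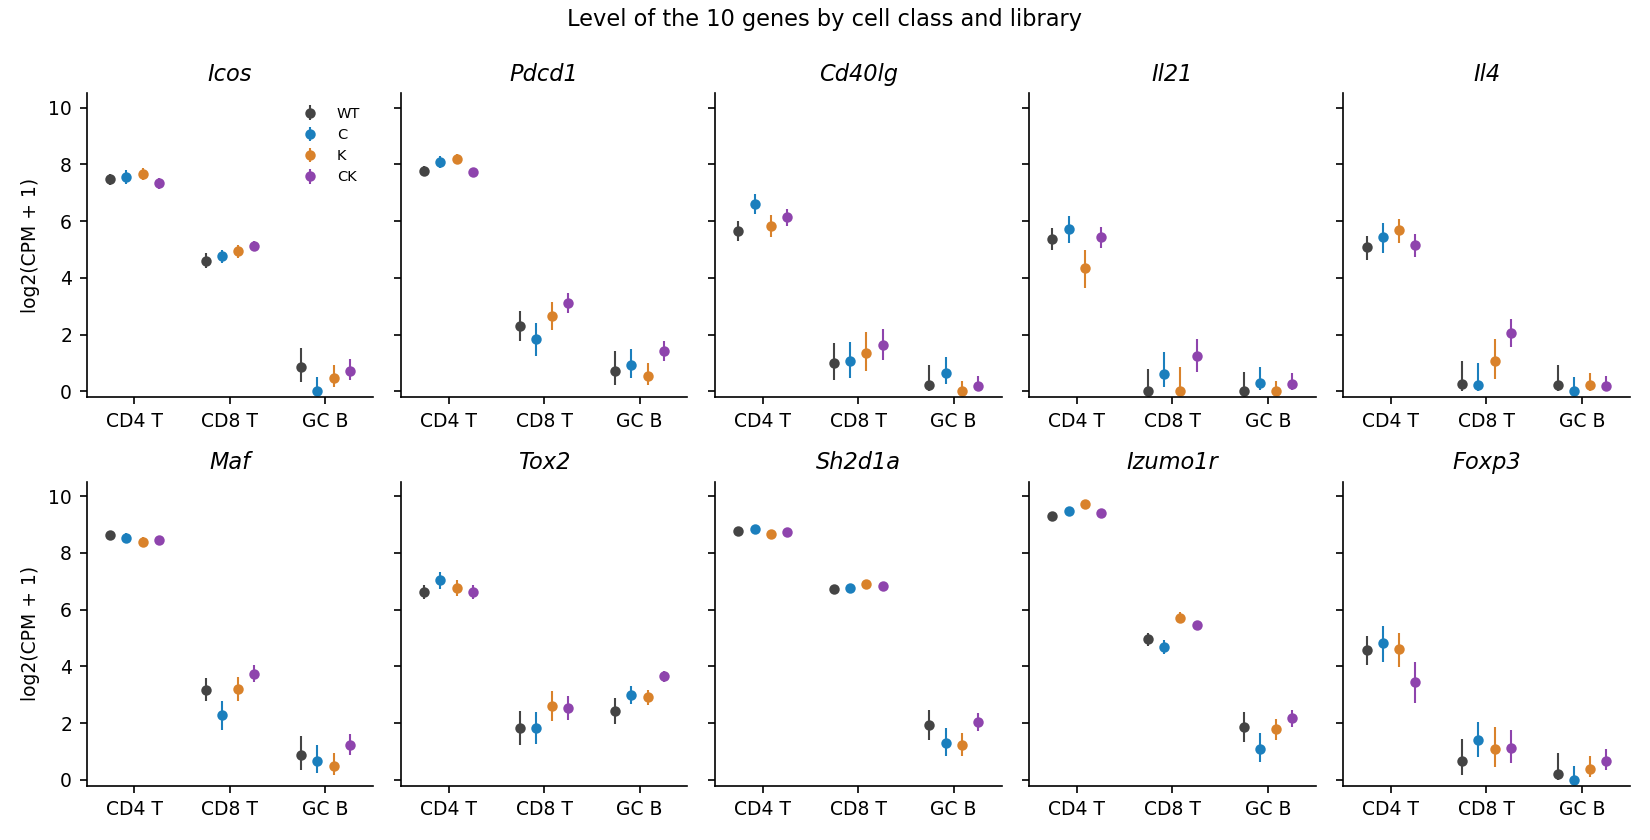
Level of each gene as log2(CPM + 1) in CD4 T cells, CD8 T cells and GC B cells, with 1 point per library (WT, C, K, CK) and bars for the 95% Poisson interval of the count. For every gene the 4 CD4 points lie above the 4 CD8 points and the 4 GC B points, and the Tox2 points of GC B cells lie above those of CD8 T cells in each library.

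Among the surface molecules, Pdcd1 (PD-1, an inhibitory receptor) stood at 218, 271, 293 and 209 CPM for WT, C, K and CK in CD4 T cells. In CD8 T cells it stood at 3.95, 2.56, 5.38 and 7.72 CPM, and in GC B cells at no more than 1.69. Its log2 fold of CD4 over CD8 T cells was 5.34 (SE 0.16, edgeR adjusted p = 3.12e-17). The groups did not come near each other. Cd40lg, the helper signal to CD40 on B cells, stood at 49.8, 96.7, 56.5 and 69.8 CPM in CD4 T cells in the same order, and at 0.988, 1.10, 1.57 and 2.12 in CD8 T cells. The C library was the highest of the 4. Icos, a costimulatory receptor, was at 177, 188, 203 and 161 CPM in CD4 T cells but also at 23.5, 26.4, 29.6 and 33.9 CPM in CD8 T cells. Its log2 fold of 2.42 (SE 0.10, edgeR adjusted p = 7.87e-15) was therefore among the smaller ones.

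The cytokines were sparse but concentrated in CD4 T cells. Il21 had 55, 38, 18 and 59 UMIs for WT, C, K and CK, or 40.9, 51.7, 19.2 and 42.4 CPM. In CD8 T cells it had 0, 3, 0 and 9 UMIs. A count of 0 among 1191 WT CD8 T cells allows a share of up to 0.252%, whereas 12.1% of WT CD4 T cells had an Il21 UMI. Il4 stood at 32.7, 42.2, 50.1 and 34.5 CPM in CD4 T cells. In CD8 T cells it had 1, 1 and 5 UMIs in WT, C and K and 21 in CK, where 10 of the 21 came from a single cell. Log2 folds of CD4 over CD8 T cells were 5.85 (SE 0.34) for Il21 and 4.65 (SE 0.35) for Il4, with edgeR adjusted p = 2.34e-12 and 1.76e-10. Without CK the fold of Il4 was 6.07. Il21, Il4, Cd40lg and Foxp3 were so low in CD8 T cells that they could pass the filter on low counts only through CD4 T cells. A higher CD4 level was thus a condition of their test.

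Of the transcription factors, Maf (c-MAF, which supports IL-21 and IL-4 expression) stood at 394, 370, 335 and 348 CPM in CD4 T cells and at 8.10, 3.84, 8.29 and 12.4 in CD8 T cells. Tox2, an HMG-box factor of follicular helper cells, stood at 98.1, 131, 108 and 98.5 CPM against 2.57, 2.56, 5.15 and 4.84. Both differed by more than their spread, with log2 folds of 5.19 (SE 0.14) and 4.57 (SE 0.16). Sh2d1a was the gene most shared with CD8 T cells. Its CPM of 438, 456, 410 and 423 in CD4 T cells met 105, 108, 119 and 114 in CD8 T cells, a log2 fold of 1.70 (SE 0.07, edgeR adjusted p = 1.56e-15).

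Izumo1r, which encodes the folate receptor 4 protein found on regulatory and follicular helper cells, stood at 623, 715, 852 and 674 CPM in CD4 T cells and at 30.0, 24.9, 51.8 and 42.5 in CD8 T cells. K was the highest library in both classes. Foxp3 stood at 23.0, 27.2, 23.5 and 10.1 CPM in CD4 T cells, with CK the lowest, and at 0.593, 1.65, 1.12 and 1.21 in CD8 T cells. Log2 folds were 4.02 (SE 0.09) and 3.84 (SE 0.32), with edgeR adjusted p = 1.61e-18 and 1.06e-09.

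Against GC B cells the separation was wider. All 10 genes were higher in CD4 T cells, where 28.5% of 9863 genes were higher and 26.4% lower, and the median log2 fold of the 10 was 8.04 beside 0.02 for all genes. Leaving Tox2 aside, 9 had log2 folds between 5.73 (Foxp3) and 8.62 (Maf). For WT, C, K and CK, GC B cells had 0, 2, 0 and 3 UMIs of Il21 and 1, 0, 2 and 2 of Il4. Cd40lg had 1, 5, 0 and 2 and Foxp3 1, 0, 4 and 9. The size of these folds rests on few UMIs, and these genes could pass the filter on low counts only through CD4 T cells. Tox2 had the smallest, at 3.73 (SE 0.17, edgeR adjusted p = 2.86e-13).

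The share of cells with a UMI followed the same order. An Izumo1r UMI was found in 71.8%, 73.9%, 74.3% and 69.1% of CD4 T cells for WT, C, K and CK, and in 1.30%, 0.490%, 1.20% and 1.32% of GC B cells, which should lack it. GC B cells were the deeper class, with median UMIs of 4931, 4053, 4759 and 3653, so their low share does not come with shallower cells. Of the CD4 T cells, 66.7%, 70.4%, 68.7% and 60.2% held UMIs of at least 3 of the 10 genes, against 0.776% to 2.64% of CD8 T cells. Cells with none of the 10 made up 3.91% to 6.97% of CD4 T cells. After each cell was thinned to 1000 UMIs, the mean number of these genes per CD4 T cell was 1.78, 1.93, 1.84 and 1.88 for WT, C, K and CK, and 0.154 to 0.210 per CD8 T cell.

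Other follicular helper genes moved with them. Of 25 listed genes, 23 were tested, 19 were higher in CD4 than in CD8 T cells and 1 was lower, with a median log2 fold of 1.29. The 4 largest were Ascl2 (5.91, SE 0.27), a factor that starts follicular helper differentiation, Angptl2 (5.48, SE 0.32), Sostdc1 (5.14, SE 0.21) and Cebpa (5.10, SE 0.43), with edgeR adjusted p of at most 1.27e-09. Ascl2, Angptl2 and Cebpa could pass the filter on low counts only through CD4 T cells. The 1 lower gene was Lef1 at -1.84 (SE 0.07), a factor of naive T cells as well. In the regulatory list 13 of 20 genes were tested, 11 were higher and 1, Itgae, was lower.

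**Figure D2:**
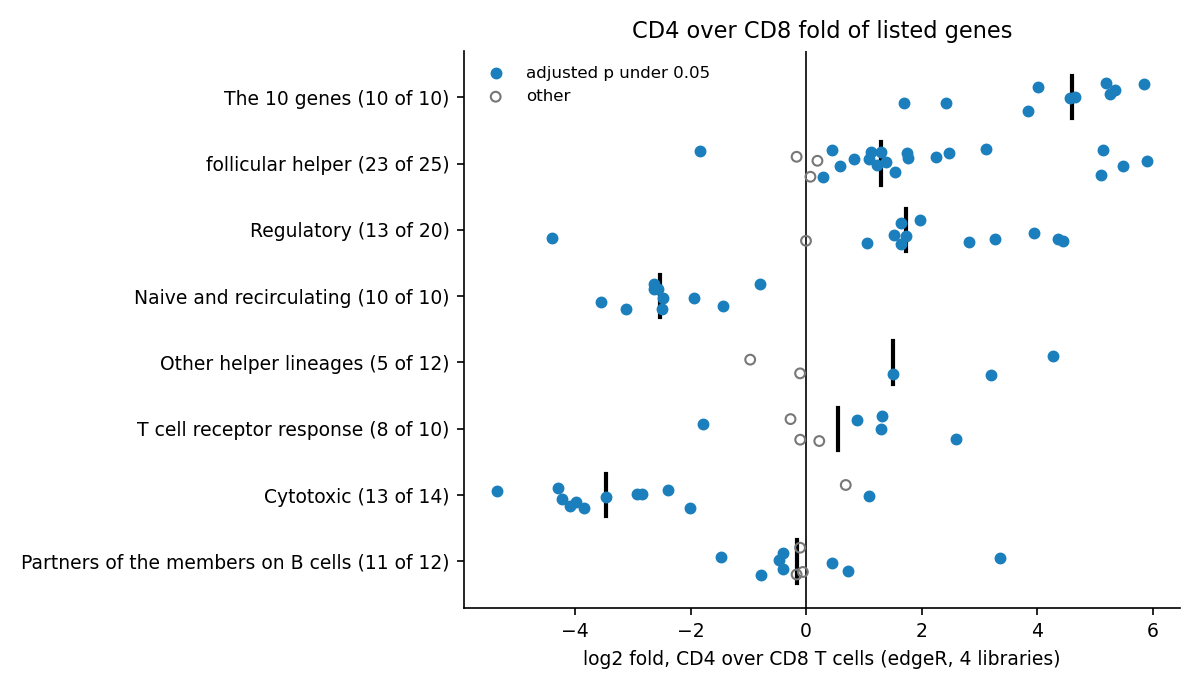
Log2 fold of CD4 over CD8 T cells for the 10 genes and for each fixed list, with the number tested of the number listed. Filled points passed an edgeR adjusted p of 0.05, open points did not, and black bars are list medians, which run from 4.61 for the 10 genes to -3.47 for the cytotoxic list.

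The lists of resting and killer cells ran the other way. All 10 naive and recirculating genes were lower in CD4 T cells, with a median log2 fold of -2.53. The largest were Igfbp4 (-3.56), Dapl1 (-3.12), Txk (-2.64) and Satb1 (-2.64). Of 14 cytotoxic genes 13 were tested, 11 were lower and 1 was higher. Klrd1, a natural killer receptor chain, fell by 5.36, Gzmm by 4.30, Ctsw by 4.23 and Prf1, encoding perforin, by 4.09 on the log2 scale. Gzmm and Prf1 could pass the filter on low counts only through CD8 T cells. The 1 higher gene was Gzmk at 1.09 (SE 0.38, edgeR adjusted p = 0.0286), but its libraries were split. Gzmk stood at 17.1, 0, 2.13 and 44.6 CPM in CD4 T cells and at 5.93, 2.93, 9.86 and 9.08 in CD8 T cells, higher in WT and CK and lower in C and K.

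Genes of other helper lineages were mostly too low to test. Of 12 listed, 5 were tested and 3 were higher in CD4 T cells: Ccr4 (4.28, SE 0.53), Ifng (3.20, SE 0.35) and Gata3 (1.51, SE 0.13). Ccr4 and Ifng could pass the filter on low counts only through CD4 T cells. Of 10 genes of the T cell receptor response, 8 were tested, 4 were higher and 1 was lower. Egr2 (2.59, SE 0.24), Nr4a1 (1.31, SE 0.31) and Egr1 (1.29, SE 0.17) were among the higher ones and Myc fell by 1.79. In the C library Nr4a1 was lower in CD4 than in CD8 T cells, at 2.72 against 3.48 CPM, and it was highest in K, at 25.6 against 5.83. Markers of natural killer T cells were at 28.8 to 46.9 CPM in CD4 T cells against 19.2 to 26.4 in CD8 T cells, and those of gamma delta T cells at 0 to 16.3 against 12.3 to 25.1, and the part of such cells was not tested. Plasma cell markers stood at 241, 261, 204 and 647 CPM in CD4 T cells for WT, C, K and CK. In CD8 T cells they stood at 192 to 238 CPM. The part of plasma cell RNA or of doublets in the CK level was not tested.

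Receptors and ligands that pair with these genes on B cells were tested in the same fits. Of 12 listed, 11 were tested, with 3 higher and 5 lower in CD4 than in CD8 T cells, the largest being Pdcd1lg2 (3.35), Il4ra (-1.48), Cd40 (-0.79) and Cd274 (0.72). Against GC B cells 6 were higher in CD4 T cells and 5 were lower. Cd40, the receptor of the Cd40lg product, was lower in CD4 T cells at -2.78 (SE 0.22), as were Icosl, the ligand of ICOS, at -2.19 (SE 0.23), Il4ra at -1.43 (SE 0.15) and Il21r at -0.56 (SE 0.09), with edgeR adjusted p of at most 4.40e-05. The PD-1 ligands Cd274 and Pdcd1lg2 were both higher in CD4 T cells than in GC B cells, each at 2.47 (SE 0.25).

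Outside the list, 5 genes had the profile most like that of the 10 over the 12 sums of class and library, among 10425 genes with at least 100 UMIs. They were Tnfsf11 (Pearson r = 0.996), Tox (0.995), Ptger2 (0.994), Arhgap31 (0.994) and Gpm6b (0.994). The 12 sums share 4 libraries and 3 cell classes, so r describes the class contrast mainly. Tnfsf11, encoding RANKL, stood at 46.1 to 70.8 CPM in CD4 T cells, 1.58 to 3.36 in CD8 T cells and at most 0.330 in GC B cells. Of the 10 genes themselves, Maf (0.997) and Pdcd1 (0.996) lay nearest to the shared profile, and Sh2d1a (0.874) and Tox2 (0.899) farthest. That profile is the mean of the 10 and holds each gene itself, so these r are not comparable with those of genes outside the list.

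Within CD4 T cells the genes overlapped unevenly. An Icos UMI was found in 49.3% of WT cells with a Pdcd1 UMI and in 31.2% of those without. In C the values were 39.6% and 32.3%, in K 45.8% and 30.7% and in CK 35.6% and 31.9%, so the shares lay close together in CK. For Cxcr5, the follicle-homing receptor, the shares with and without a Pdcd1 UMI were 39.6% and 23.1% in WT, 30.2% and 19.4% in C, 39.7% and 17% in K and 26.4% and 16.8% in CK. Cells with a Pdcd1 UMI were the deeper ones in each library, for example with a median of 3119 against 2852 UMIs in WT. Cells are not replicates, and these shares are given without a test.

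Il21 and Il4 were found together in 25 of the 129 CD4 T cells with an Il4 UMI. Of CD4 T cells with an Il4 UMI, 10 of 31 in WT, 9 of 28 in C and 5 of 33 in K also had an Il21 UMI, and 1 of 37 in CK. The exact binomial intervals were 16.7% to 51.4%, 15.9% to 52.4%, 5.11% to 31.9% and 0.0684% to 14.2%, so those of K and CK overlapped, and the difference between libraries was not tested. Without an Il4 UMI the share with an Il21 UMI was 10.0%, 8.42%, 3.98% and 8.97%. The Il4-positive cells of CK had a median of 2019 UMIs, beside 3345 in WT, 2398 in C and 3050 in K, and the part of depth in this was not tested.

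Foxp3 and the helper cytokines were rarely found in the same cells. A Foxp3 UMI was found in 21 of 330, 14 of 230, 13 of 284 and 11 of 472 CD4 T cells for WT, C, K and CK. None of the 121 CD4 T cells with an Il21 UMI had one, which allows a share of up to 2.48%, and 1 of the 129 cells with an Il4 UMI did. Of the 59 Foxp3-positive cells, 23 also had a Pdcd1 UMI. These were 7 of 144 Pdcd1-positive cells in WT, 6 of 106 in C, 5 of 131 in K and 5 of 174 in CK.

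Sums of Foxp3-positive and Foxp3-negative CD4 T cells were then tested, with Foxp3 left out since it chose the cells. Of 5055 genes, 0.593% were higher and 0.613% lower in Foxp3-positive cells. Of the other 9 genes, 8 could be tested and 1 was called, Cd40lg, which was lower. It had 2 UMIs in Foxp3-positive cells, both in K, where Foxp3-negative cells had 67, 71, 51 and 97. It could therefore pass the filter on low counts only through Foxp3-negative cells. Its log2 fold was -2.89 (SE 0.78, edgeR adjusted p = 0.0459), and the pooled counts were 7.54 times lower with a counting interval of 2.07 to 62.5. The call was lost when any 1 of the 4 libraries was left out (adjusted p of 0.0685 to 0.382).

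Il21 had 0 UMIs in Foxp3-positive cells of every library against 170 in the others, and it fell below the filter on low counts. With 3 counts set over the group its level was at least 2.99-fold lower. Il4 had 1 UMI against 169, a pooled ratio 8.91 times lower with a counting interval of 1.58 to 354, and an edgeR adjusted p = 0.197. It too could pass the filter on low counts only through Foxp3-negative cells. The remaining 6 genes did not pass. Pdcd1, Maf and Tox2 had log2 folds of -0.27 (SE 0.25), -0.10 (SE 0.25) and -0.04 (SE 0.35), and Icos, Izumo1r and Sh2d1a of 0.54 (SE 0.26), 0.45 (SE 0.18) and 0.29 (SE 0.20). Izumo1r passed under 1 alternative, the limits on genes and mitochondrial UMIs per cell, at 0.53 with an edgeR adjusted p = 0.0483, and its adjusted p ran up to 0.941 over the others.

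**Figure D3:**
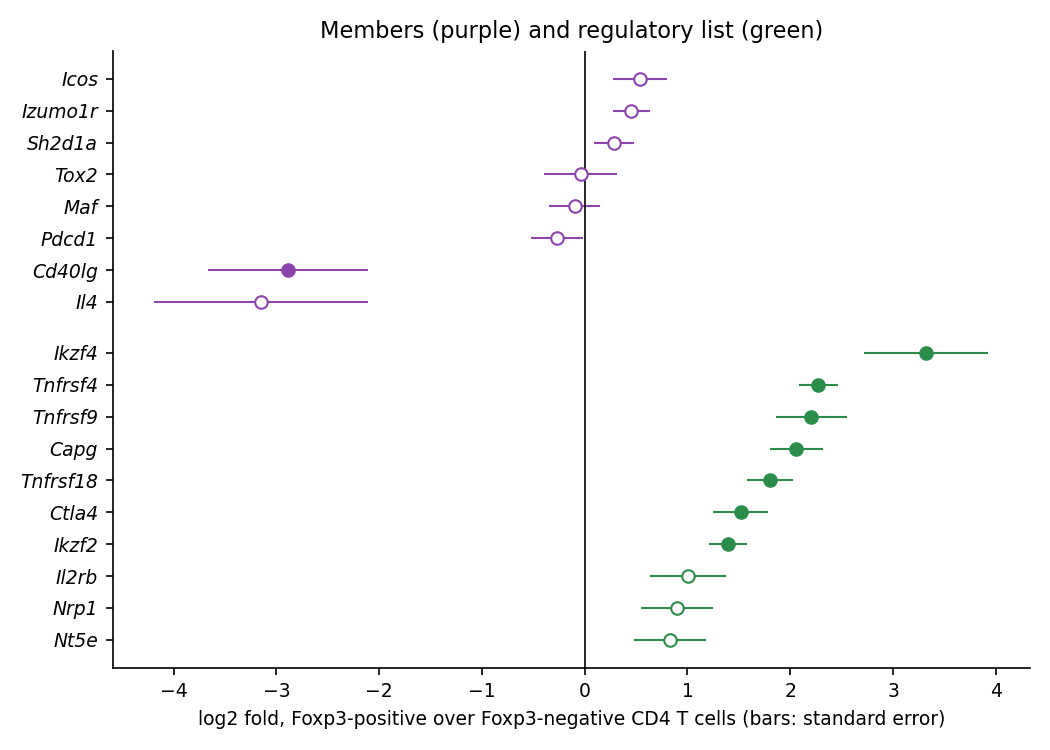
Log2 fold of Foxp3-positive over Foxp3-negative CD4 T cells with its standard error (edgeR, 4 libraries), for 8 of the 10 genes (purple) and the tested genes of the regulatory list (green). Filled points passed an adjusted p of 0.05, and the 7 filled green points run from 1.40 for Ikzf2 to 3.32 for Ikzf4.

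The Foxp3-positive cells carried regulatory genes. Of 20 listed, 10 were tested, 7 were higher and 0 lower, by the edgeR test, with 3 not called. Tnfrsf4 (OX40) stood at 1088, 1406, 794 and 1011 CPM in Foxp3-positive cells and at 175, 206, 243 and 219 in the others, a log2 fold of 2.27 (SE 0.19, edgeR adjusted p = 2.43e-12). Ikzf4 (3.32, SE 0.60), which encodes EOS, a partner of FOXP3, Tnfrsf9 (2.20, SE 0.35), the receptor 4-1BB, and Capg (2.06, SE 0.26) followed. Ikzf4 stood at 2.22 to 7.97 CPM in Foxp3-negative cells and could pass the filter on low counts only through Foxp3-positive cells. Ctla4, Ikzf2 and Tnfrsf18 were higher as well. Klrg1, named here after its values were seen, was below the filter and had 34 UMIs in the 59 Foxp3-positive cells against 9 in the 1257 others. Follicular helper genes split: Batf was higher at 1.09 (SE 0.29), while Tnfsf8 (-2.45), Tcf7 (-2.29), Sostdc1 (-2.15) and Slamf6 (-1.09) were lower, and 15 of the 20 tested were not called.

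With 1 mouse per genotype no difference between genotypes has a replicate check, and intervals cover counting error only. A gene was counted as past the threshold at a ratio of 1.5 in either direction where the 2 libraries held 20 or more UMIs together, as they did for all 10. In C over WT, 1 of the 10, Cd40lg, was higher, where 5.96% of 7848 genes were higher and 9.71% lower. In K, 1 was higher (Il4) and 1 lower (Il21), where 4.63% of 7943 genes were higher and 22.7% lower. In CK, 1 was lower (Foxp3) and 0 were higher, where 5.41% of 8391 genes were higher and 8.89% lower. These shares are not far from those of all genes.

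**Figure D4:**
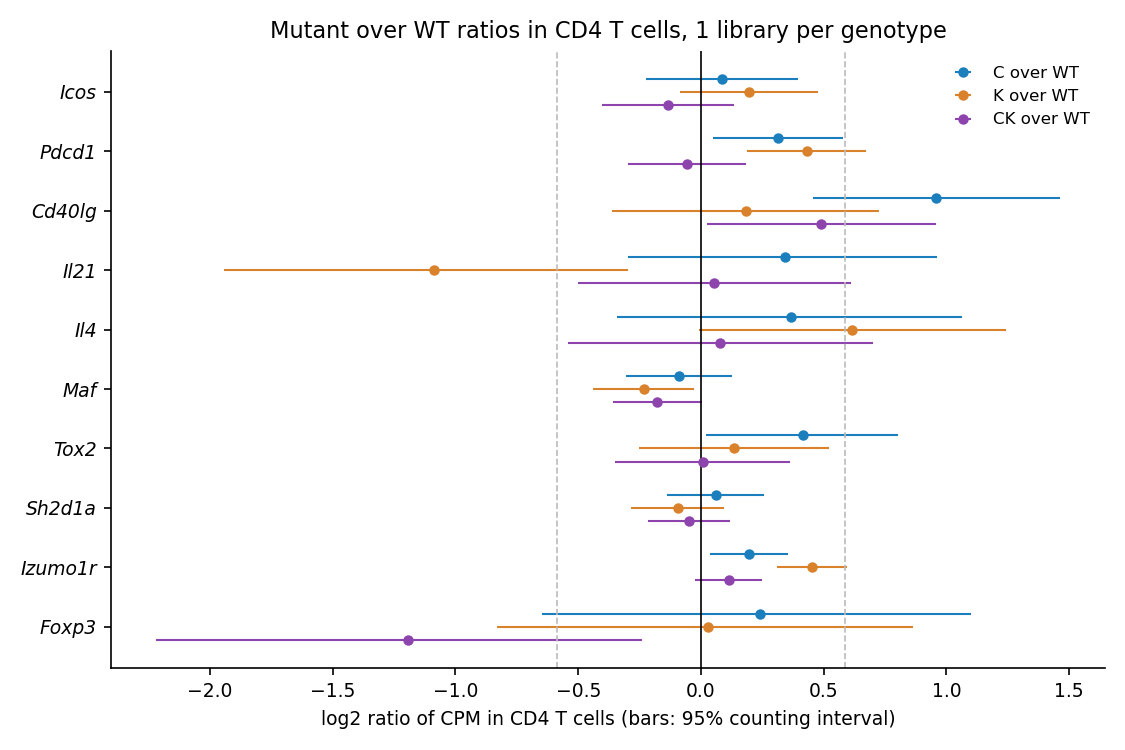
Log2 ratio of CPM in CD4 T cells of C, K and CK over WT for each of the 10 genes, with 95% counting intervals and dashed lines at a ratio of 1.5. Most points lie within 0.5 of 0, and Cd40lg in C, Il21 in K and Foxp3 in CK lie farthest out.

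Cd40lg in C was 1.94 times its WT level (interval 1.37 to 2.75), with 71 UMIs in 230 cells against 67 in 330. The share of cells with a UMI was 16.1% in WT and 20.4% in C. Il21 in K was 0.470 times WT (interval 0.260 to 0.813), with 18 UMIs in 15 cells against 55 in 40 cells. In the same cells Il4 was 1.53 times WT (interval 0.995 to 2.37), so the helper cytokines lay on opposite sides of WT. The longest annotated transcript is 605 bases for Il4 and 3072 bases for Il21, and the part of the relation between K ratios and transcript length in this was not tested.

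Izumo1r in K was 1.37 times WT in CD4 T cells (interval 1.24 to 1.51) and 1.72 times WT in CD8 T cells (interval 1.40 to 2.13). Pdcd1 in K was 1.35 times WT in CD4 T cells (interval 1.14 to 1.59). Relative to the same gene in CD8 T cells, both were at or below WT, at -0.33 and -0.014 on the log2 scale. Maf and Sh2d1a had ratios of 0.851 to 1.04 over the 3 mutant libraries. The share of CD4 T cells with a Maf UMI was 8.15 points lower in CK than in WT (difference -8.15, interval -15.2 to -0.966), and 0.42 points higher after thinning (interval -6.57 to 7.29).

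Foxp3 in CK was 0.437 times WT (interval 0.215 to 0.847), with 14 UMIs against 31. The share of CD4 T cells with a Foxp3 UMI was 6.36%, 6.09%, 4.58% and 2.33% for WT, C, K and CK, and in GC B cells it was at most 0.228%. CK had the lowest share, 4.03 points under WT (interval 1.05 to 7.44). Its cells were also the shallowest. After thinning to 1000 UMIs the shares were 1.66%, 2.71%, 1.87% and 1.85%, and the CK difference from WT was 0.19 points (interval -2.22 to 2.28). Thinning kept 5 WT and 8 CK cells with a Foxp3 UMI and left out 29 and 40 shallower CD4 T cells. Among CD4 T cells with a Pdcd1 UMI, the difference of CK from WT was -1.99 points (interval -7.25 to 2.71). In the regulatory list, 2 of 13 genes in CK, Ikzf4 and Capg, were lower by at least 1.5-fold and 1, Entpd1, was higher, where 8.89% of all genes were lower. In C 4 of 11 were lower, namely Il2rb, Ikzf4, Tnfrsf9 and Capg, and 1, Klrg1, was higher. In K 3 of 11 were lower, namely Ikzf4, Nrp1 and Capg, and 1, Tnfrsf9, was higher. Of all genes 9.71% were lower in C and 22.7% in K. Foxp3 was at 1.18 times WT in C and 1.02 times in K.

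**Figure D5:**
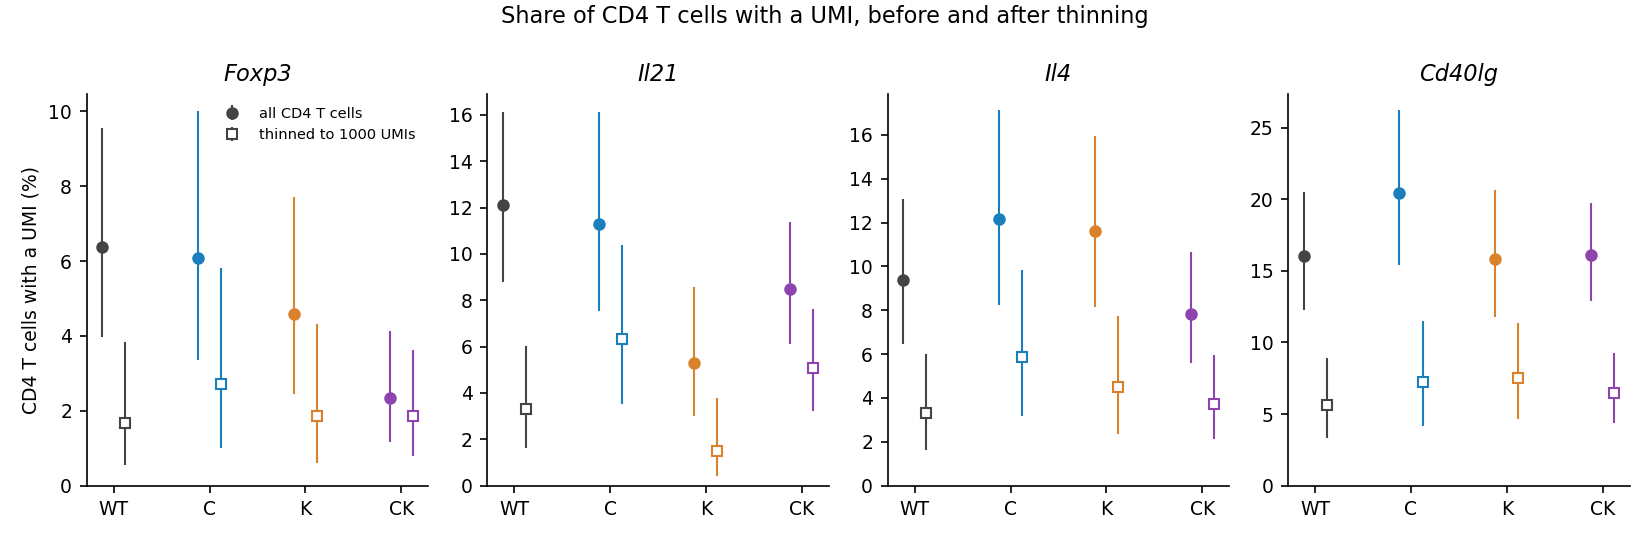
Share of CD4 T cells with a UMI of Foxp3, Il21, Il4 or Cd40lg in each library, in all cells (filled circles) and in cells thinned to 1000 UMIs (open squares), with 95% Clopper-Pearson intervals. The Foxp3 share is 6.36% in WT and 2.33% in CK before thinning and 1.66% and 1.85% after it, while Il21 is lowest in K in both.

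Il21 stayed lowest in K after thinning, at 1.5% of cells against 3.32% in WT, 6.33% in C and 5.09% in CK, although the K difference from WT was then 1.82 points down with an interval of -4.74 to 1.04. For Cd40lg the thinned shares were 5.65%, 7.24%, 7.49% and 6.48% and the intervals of all 3 differences from WT included 0.

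The 10 genes outside CD4 T cells also differed among libraries. Summed over the 10, CD8 T cells held 175, 172, 223 and 223 CPM for WT, C, K and CK, and GC B cells held 12.7, 12, 12.1 and 22.9. CK was highest in GC B cells. Of GC B cells, 5.38%, 3.67%, 6.08% and 5.89% had a UMI of Cd3e, Cd3d or Cd3g, and the part of T cell RNA in these levels was not tested.

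Tox2 had the most UMIs of the 10 in GC B cells. It stood at 4.45, 7.01, 6.54 and 11.5 CPM for WT, C, K and CK, above its level in CD8 T cells of the same library each time, and the ratio of GC B over CD8 T cells was 1.73 (interval 0.864 to 3.66), 2.74 (1.51 to 5.30), 1.27 (0.792 to 2.11) and 2.38 (1.63 to 3.59). Of 330 GC B cells with a Tox2 UMI, 20 also had a CD3 UMI. Among GC B cells without any CD3 UMI, 2.07%, 2.80%, 3.13% and 4.17% had a Tox2 UMI. The shares over all GC B cells, 1.96%, 2.84%, 3.10% and 4.25%, had the same order, whereas by CPM C lay above K. In CK, Tox2 was 2.59 times its WT level in GC B cells (interval 1.72 to 4.05), where the CD4 T cells of the same libraries gave 1.00 (interval 0.785 to 1.29).

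By deposited subtype, Tox2 was not found in prememory cells, with 0 UMIs in 578 cells over the 4 libraries, which allows a share of up to 0.519%. Most prememory UMIs came from WT and C, so the other GC B cells were weighted to match, which gave 7.25 CPM. Prememory cells were then at least 4.23-fold lower with 3 counts set over the group. Within WT or K alone 3 counts gave no bound. Centroblasts held 2.08, 5.29, 5.40 and 7.86 CPM in WT, C, K and CK, and centrocytes 6.56, 5.84, 7.19 and 11.1. Early centroblasts were at 0, 12.7, 3.39 and 17.8 CPM, where the 38 WT cells allow up to 15.7. Recycling cells, 82 in all with 9 UMIs, were at 34.8, 16.1, 9.04 and 17.6 CPM.

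CD4 T cells made up 4.09%, 2.30%, 3.50% and 3.67% of barcodes for WT, C, K and CK. Of all T cells by the CD3 minimum they were 16.5%, 9.51%, 13.3% and 11.7%. The gate needs a Cd4 UMI, and T cells with no UMI of Cd4, Cd8a or Cd8b1 were 22.9%, 20.2%, 27.0% and 27.5% of T cells. Both together made up 39.4%, 29.7%, 40.3% and 39.2%, so that C alone lay well below WT. The sort selects B220+ cells, and these shares describe what passed it rather than the spleen.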

How the data were processed

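Raw UMI counts per gene and barcode were deposited by the authors for 4 libraries, made with Cell Ranger (3.0 in the submitters' processing notes, 3.0.2 in the file headers) on mm10. The authors' deposited cell table gave the GC B cells and their subtypes, named in Seurat 4.0.

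The 10 genes, the gates and the gene lists were chosen with earlier results of these data known. Counts were summed per library and class. Class contrasts used edgeR 4.0.16 (quasi-likelihood, TMM, filterByExpr, library as block, Benjamini-Hochberg over all genes, 0.05), with DESeq2 1.42.0 as an alternative. The gate genes were not tested. Levels are CPM with exact Poisson intervals, shares have Clopper-Pearson intervals and ratios of counts conditional binomial ones, all at 95% and for counting error only. A group at 0 was set at 3 counts. Named genes were the 10, up to 4 of the largest called folds per list, and 5 genes with the closest profile. No doublet caller was run. The stricter gate without B cell transcripts stands in for it. The libraries are the replicates of the class contrasts. Simulated sums held 2-fold and 4-fold rises in the first-named class. The 2-fold rises were called for 91% of genes in CD4 over CD8 T cells and 89% in CD4 T cells over GC B cells. In Foxp3-positive over Foxp3-negative cells 30% were called. For 4-fold rises the shares were 100%, 99% and 92% in the same order. Falls were not simulated, so these shares do not cover genes that are lower in Foxp3-positive cells. Coordinates are those of GENCODE vM21 (GRCm38), matched by Ensembl identifier. Alternatives covered scaling, test, filter, block, libraries, gates, limits on cells and thinning to 1000 UMIs.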

Additional observations from a re-analysis of the deposited data

Results flagged for a closer look

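T cells with CD3 UMIs but no UMI of Cd4, Cd8a or Cd8b1 entered no comparison. Summed over the 10 genes, their level was near that of CD4 T cells. Their summed level was 2077, 1939, 2055 and 1880 CPM for WT, C, K and CK, against 2094, 2349, 2350 and 2071 in CD4 T cells and 12 to 22.9 in GC B cells. They were flagged as a signal in cells outside the comparisons, above the GC B cells of the same libraries. These cells numbered 460, 489, 577 and 1108, more than the CD4 T cells in each library, and their median UMIs were 2683, 2007, 2362 and 1711. In them the Foxp3 level was 25.0, 20.5, 30.0 and 18.9 CPM, and that of Il21 27.7, 40.2, 14.7 and 26.3. Groups of 1 library each could not be tested for a library far from the others.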

How the results depend on the processing

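All 10 genes stayed called and higher in CD4 T cells under every alternative in which they were tested, against CD8 T cells and against GC B cells. The counts of all genes moved more. For CD4 over CD8 T cells, 1103 genes were higher and 936 lower by the DESeq2 Wald test, 1109 and 931 with no replicate block, and 966 and 860 after thinning, in place of 1792 and 1558. Against GC B cells thinning gave 1801 and 1693 in place of 2812 and 2603.

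Each library is 1 mouse, so the block pairs classes of the same animal. The Foxp3 contrast depended on the processing, and the cause was not tested. In place of 30 genes higher and 31 lower, no replicate block gave 17 and 15, thinning 13 and 17, the DESeq2 Wald test 23 and 3, no filter 26 and 94, and leaving out a library 15 to 21 higher and 9 to 24 lower. Of the 10 genes, 0 were called with DESeq2 size factors, the Wald test, no block, T cells without B cell transcripts, thinning or any library left out (0 to 0), and 2 without the filter or under the limits on cells (under 2500 genes and 8% mitochondrial UMIs). Without the filter these 2 were Cd40lg and Il21. The 7 regulatory genes called higher were all kept except that Ikzf4 was lost without B cell transcripts, and Ikzf4, Ctla4 and Tnfrsf9 after thinning, which kept 4. The adjusted p of Cd40lg ran from 0.00531 to 0.590. Among folds near 0, Tox2 turned to 0.016 with DESeq2 size factors, 0.13 without B cell transcripts, 0.30 under the limits and 0.14 after thinning, and ran from -0.48 to 0.21 with a library left out. Maf turned to 0.027 without B cell transcripts and 0.062 under the limits, and ran from -0.40 to 0.23, and Sh2d1a turned to -0.012 with no filter and -0.10 without B cell transcripts.

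Between genotypes, thinning turned Foxp3 in CK over WT to 0.33 (log2) and its share to 0.19 points, Izumo1r in C to -0.078 and the Maf share in CK to 0.42 points. It moved the shares of CK minus WT to 3.29 points for Pdcd1, 1.77 for Il21, 1.67 for Tox2 and 3.90 for Sh2d1a, that of Il21 in K to -1.82, and the median of the 10 ratios in CK to 0.14. Relative to CD8 T cells Pdcd1 in K was at -0.014 and Izumo1r at -0.33. Without B cell transcripts the Icos share in CK was 1.39 points above WT. Under the limits on cells the median of the 10 in CK was -0.18. The CD4 share in CK over WT (log2) was 0.16 without B cell transcripts, -0.55 under the limits, 0.14 of unannotated barcodes and -0.49 of all T cells, and in K 0.093 of unannotated barcodes. Leaving prememory cells out of GC B cells, chosen after seeing the data, changed no call of the 10. Genes with few UMIs, Il21, Il4 and Foxp3, are limited by counting error.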

Other observations

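Outside the 10 genes, other lists also differed between genotypes in CD4 T cells, given here as ratios of single libraries with no test. Among all genes 9.71%, 22.7% and 8.89% were lower and 5.96%, 4.63% and 5.41% higher by at least 1.5-fold for C, K and CK. Of the cytotoxic genes with enough UMIs, 6 of 7 in C and 5 of 6 in K were lower than in WT, among them Gzmk, Nkg7, Ccl5, Ccl4 and Ccl3 in both, with median log2 ratios of -2.06 and -2.61. In CK 3 of 8 were lower and 2, Gzmk and Eomes, were higher. For Ccl4 and Ccl3 it was WT that stood apart. Ccl4 was at 63.1, 0, 1.07 and 0.719 CPM and Ccl3 at 28.2, 0, 1.07 and 2.16 for WT, C, K and CK. Both WT levels lay above those of WT CD8 T cells, at 10.9 and 1.78 CPM. Of the other helper lineage genes, 3 of 4 in C, 2 of 4 in K and 1 of 5 in CK were lower, with Ifng lower each time. Of the 10 naive and recirculating genes, 2, 4 and 5 were lower for C, K and CK, and Ccr7, the lymph node homing receptor, was lower in all 3. Dapl1 of the same list was higher in C and in CK, at 85.8 and 77.0 CPM against 43.1 in WT. Of the T cell receptor response genes, 3 of 6 in C (Egr1, Egr2 and Cd69) and 3 of 7 in K (Nr4a1, Egr1 and Egr2) were higher. In the same list Egr3 was lower in C, and 1 of 7 genes, Egr2, was higher in CK, where the median log2 ratio was 0.05.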
